A study of Mus musculus with 4 samples.

Results

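The immunoglobulin loci were examined in open chromatin maps of DN3 thymocytes, T cell precursors that do not make antibody. All peaks with a summit inside 3 windows of the mouse build mm10 were taken: Igh, the heavy chain locus, at chr12:113220000-116010000, Igk, the kappa light chain locus, at chr6:67550000-70730000, and Igl, the lambda light chain locus, at chr16:19020000-19265000. They numbered 150 of the 105581 peaks in the 4 deposited lists. Merged wherever peaks of different lists overlapped by at least 1 bp, they formed 64 of 36224 regions, of which 60 lay in Igh, 4 in Igk and 0 in Igl.

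Thymocytes of wild-type (WT) mice were flow sorted as DN3 cells, the CD4/CD8 double-negative stage in which Tcrb, the T cell receptor beta locus, rearranges, and profiled by ATAC-seq, in which a transposase cuts accessible DNA. EpCAM-positive DN3 cells were those held by microbeads through a biotin-coupled antibody to the adhesion molecule EpCAM. EpCAM-negative DN3 cells were the fraction that passed unlabelled. Each fraction has 2 libraries, and the labels name no separate mice or cultures, so p-values measure a spread that may be technical. The labels give neither mouse age nor sex.

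Antibody genes are assembled from V, D and J segments by the RAG recombinase, which cuts at recombination signals made of a heptamer and a nonamer beside each segment. B and T cell precursors share this recombinase, and which locus is cut depends on which is accessible. Joining of heavy chain D to J segments is known to occur in some thymocytes, whereas joining of heavy chain V segments is characteristic of the B lineage. In the mouse, Igh is read from high to low coordinates: V segments lie at high coordinates, followed downwards by the D and J segments, an interval holding the intronic enhancer, the constant genes and a 3′ regulatory region. The promoter of a heavy chain V segment therefore lies on its high-coordinate side.

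The promoters of 4 long non-coding RNAs inside the Igh V cluster are shown because regions lay over or next to 3 of them, and because 3 of the 4 are near copies of each other. They are RefSeq sequences of GRCm38.p6, 250 bases before to 50 after the annotated start, all on the plus strand, opposite to the V segments. Capitals mark exact matches to the E-box CAGGTG and the recombination heptamer CACAGTG on either strand, with no overlap between matches. Gm30996 is at chr12:115407364-115407663, Gm40900 at chr12:115703580-115703879, Gm30948 at chr12:115262401-115262700 and Gm40899 at chr12:114764158-114764457.
Gm30996: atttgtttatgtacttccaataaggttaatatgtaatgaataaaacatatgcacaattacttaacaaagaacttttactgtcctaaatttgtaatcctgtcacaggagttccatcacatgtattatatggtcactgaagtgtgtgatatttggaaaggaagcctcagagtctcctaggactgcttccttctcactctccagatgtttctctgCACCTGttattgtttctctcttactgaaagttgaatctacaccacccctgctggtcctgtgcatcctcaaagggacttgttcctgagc
Gm40900: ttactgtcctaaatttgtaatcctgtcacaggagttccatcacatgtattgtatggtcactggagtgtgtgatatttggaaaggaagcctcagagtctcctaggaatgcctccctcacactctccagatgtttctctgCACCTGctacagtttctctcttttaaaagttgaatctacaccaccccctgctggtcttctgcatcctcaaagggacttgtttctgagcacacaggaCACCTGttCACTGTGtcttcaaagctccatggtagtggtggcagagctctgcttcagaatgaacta
Gm30948: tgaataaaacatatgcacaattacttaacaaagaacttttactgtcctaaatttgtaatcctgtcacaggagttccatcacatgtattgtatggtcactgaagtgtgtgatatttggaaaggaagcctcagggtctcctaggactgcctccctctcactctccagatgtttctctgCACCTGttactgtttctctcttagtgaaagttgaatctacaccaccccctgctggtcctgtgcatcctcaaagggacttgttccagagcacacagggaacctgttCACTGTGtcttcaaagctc
Gm40899: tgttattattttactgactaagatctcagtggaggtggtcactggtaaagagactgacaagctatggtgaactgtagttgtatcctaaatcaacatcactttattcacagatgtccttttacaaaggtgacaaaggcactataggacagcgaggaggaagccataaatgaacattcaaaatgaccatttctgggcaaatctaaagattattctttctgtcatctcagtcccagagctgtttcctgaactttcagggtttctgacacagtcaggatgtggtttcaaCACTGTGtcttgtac

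The Gm30996 and Gm30948 promoters were 97.3% identical over their aligned bases, Gm30948 and Gm40900 94.6%, and Gm30996 and Gm40900 93.8%. Gm40899 was 55.6% to 68.1% identical to these 3. Despite the likeness, calls differed. The Gm30996 promoter shared 202 bp with a region called in EpCAM-positive replicate 1 alone, at 6 summit fragments. Summit fragments are the number of fragments stacked at the summit, solved from the authors' fold enrichment and −log10 p. The Gm40900 promoter shared 160 bp with a region of 6 summit fragments in EpCAM-positive replicate 2 and 9 in EpCAM-negative replicate 2. The nearest region to the Gm30948 promoter lay 49290 bp away. A region 21 bp from the Gm40899 promoter had 7 summit fragments in EpCAM-positive replicate 2, against 7 and 9 in the EpCAM-negative libraries, and its summit lay inside the V segment Ighv1-23. No source used here says how reads that match several copies were placed, and its part in these calls was not tested. Of the 13 RefSeq promoters in the windows, 4 held CAGGTG, 3 CACAGTG, 2 the octamer ATGCAAAT of immunoglobulin promoters and 0 a core motif of CTCF, each searched on both strands. Over all 32851 mouse promoters of that length in the table, the shares were 20.2%, 6.81%, 1.74% and 2.43%. A match is a description of the letters and not of a bound site.

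The microRNA gene Mir7094-1 lies beside the V pseudogene Ighv1-2, and 49 bp of its hairpin, at chr12:114469407-114469466 on the minus strand, overlapped a region called in all 4 libraries. Its near copy Mir7094-2, at chr12:114513635-114513694, lay 49 bp from a region at Ighv1-5 that was called in EpCAM-negative replicate 1 alone. Both give the same 3′ mature sequence, and their 5′ mature sequences differ within the seed, bases 2 to 8, which is in capitals.
miR-7094-3p: uACUCUGCuguucucuccaca
miR-7094-1-5p: uCUGAAGAggauacagggucuga
miR-7094b-2-5p: uCUGGAGAggauacagggucuga

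Lists had 26029 and 29030 peaks for EpCAM-positive cells, against 24598 and 25924 for EpCAM-negative cells. No read totals were at hand. As a relative measure of depth, the lowest common local background was 0.388 and 0.383 fragments in the EpCAM-positive libraries, against 0.290 and 0.286 in the EpCAM-negative libraries, a ratio of 1.339. Of 10 DN3 marker genes, 8 had a peak in all 4 libraries within 1000 bp of the gene, and the other two, Ptcra and Rag1, were called in 3 and in 2 libraries. Rag1, a recombinase gene, had no peak in either EpCAM-positive library, against 7 and 4 summit fragments in the EpCAM-negative libraries. These values were near the lowest summit called anywhere, 5 fragments in each EpCAM-positive and 3 in each EpCAM-negative library. Whether Rag1 fell just short of a call in EpCAM-positive libraries was not tested. Of 10 B lineage marker genes, 7 had no peak in any library, among them Cd79a, Cd79b, Vpreb1 and Igll1. The B lineage regulators Pax5 and Ebf1 had a peak in all 4 libraries. Summed over the B lineage list, summit fragments were 76 and 93 in the EpCAM-positive libraries, against 48 and 72 in the EpCAM-negative libraries. Over the DN3 list they were 820 and 903 in EpCAM-positive, against 763 and 779 in EpCAM-negative libraries. No such sum was scaled for depth. The plasmacytoid dendritic list had 4 of 6 genes with a peak in all 4 libraries but none at Siglech, and the myeloid list 1 of 4, Itgam. The plasmacytoid dendritic sums were 256 and 244 in EpCAM-positive, against 233 and 227 in EpCAM-negative libraries. For the myeloid list they were 6 and 28 in EpCAM-positive, against 16 and 18 in EpCAM-negative libraries. The part of other cells in the results below was not tested, and in bulk chromatin, fewer open cells and less opening per cell cannot be told apart.

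Igh carried many peaks, and the light chain loci almost none. Igh held 28 and 36 peaks in the EpCAM-positive libraries, against 35 and 45 in the EpCAM-negative libraries. Igk held 0 and 2 peaks in the EpCAM-positive libraries, against 2 and 2 in the EpCAM-negative libraries, and Igl held 0 in each of the 4. Over the 3 loci the mean was 33.0 ± 7.07 peaks in EpCAM-positive libraries and 42.0 ± 7.07 in EpCAM-negative libraries (SD, n = 2 each). The fractions overlapped, and the two-sided exact permutation p was 0.667 in a design whose smallest p is 0.33. Over the whole genome the EpCAM-positive mean was higher, at a ratio of 1.09, while for Igh the ratio was 0.8.

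Relative to the peaks per Mb of the whole genome in the same library, Igh density was 1.05 and 1.21 in the EpCAM-positive libraries, against 1.39 and 1.69 in the EpCAM-negative libraries. These values did not overlap between the fractions. Igk density was 0 and 0.059 of the genome's in the EpCAM-positive libraries, against 0.070 and 0.066 in the EpCAM-negative libraries. The T cell receptor beta locus, Tcrb, which DN3 cells rearrange, stood at 2.20 and 2.25 in EpCAM-positive, against 2.16 and 2.36 in EpCAM-negative libraries. Tcra/Tcrd stood at 1.40 and 1.67 in EpCAM-positive and 1.36 and 1.75 in EpCAM-negative libraries, and Tcrg at 4.20 and 2.69 in EpCAM-positive and 3.81 and 2.41 in EpCAM-negative libraries. The fractions overlapped at these 3 loci. Counted in bases covered by peaks, mean Igh density over the 4 libraries was 0.992 of the genome's (0.72 to 1.273), against 1.336 in numbers of peaks. Igh had 3417.9 and 4305.0 covered bases per Mb in EpCAM-positive libraries, below the genome's 4748.9 and 4718.3. In EpCAM-negative libraries it had 4208.6 and 4952.3, above the genome's 3964.7 and 3891.3. Igh peaks were shorter, with medians of 303 and 288.5 bp in EpCAM-positive and 308 and 291 bp in EpCAM-negative libraries. Over all peaks the medians were 427 and 368 bp in EpCAM-positive and 370 and 340 bp in EpCAM-negative libraries.

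**Figure D1:**
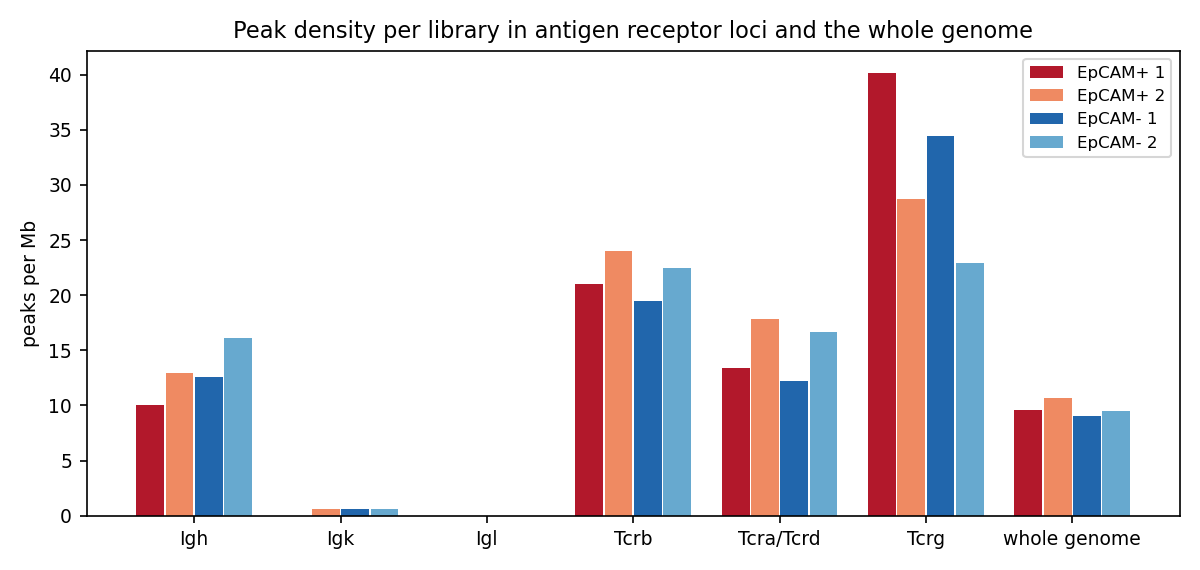
Peaks per Mb (vertical axis) in each library for the 3 immunoglobulin loci, the 3 T cell receptor loci and the whole genome, 1 bar per library, with no error bars because each bar is 1 library. Igh bars stand at or above those of the whole genome in all 4 libraries, Igk bars near 0 and Igl bars at 0.

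Igh regions were called in fewer libraries than regions of the whole genome. In Igh, 17 of 60 regions (28.3%) were called in all 4 libraries, against 46.3% of all 36224 regions. In 1 library alone were called 24 Igh regions (40.0%), against 29.8% of all regions. The share called in 1 library alone was 45.2% of 42 Tcra/Tcrd, 42.9% of 7 Tcrg and 22.2% of 18 Tcrb regions. The share called in all 4 libraries was 40.5% at Tcra/Tcrd, 57.1% at Tcrg and 61.1% at Tcrb. Igh peaks were also low, with median summits of 11 and 12.5 fragments in EpCAM-positive libraries and 10 and 11 in EpCAM-negative libraries, where all peaks had medians of 20 and 19 in EpCAM-positive and 18 and 17 in EpCAM-negative libraries. Over regions called in all 4 libraries, the median of the mean summit level was 16.25 fragments in Igh and 28.25 over the genome, and 33.7% of all such regions exceeded the highest Igh region, at 39.75. No Igh region was called in both EpCAM-positive and neither EpCAM-negative library, a pattern held by 4.4% of all regions. The reverse pattern, both EpCAM-negative and neither EpCAM-positive library, was held by 4 Igh regions (6.67%), against 1.72% of all regions. Tcrb and Tcrg had 0 regions of either pattern, and Tcra/Tcrd had 1 (2.38%) of each.

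The map of peak summits along the windows shows where they lay. Of the 60 Igh regions, 55 (91.7%) lay in the V part, counting 1 region 12 bp beyond its last segment. Outside it, the 3′ side had 2 regions, and the constant genes, the J-to-C interval and the D part 1 each. The J segments and the interval between V and D had 0.

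**Figure D2:**
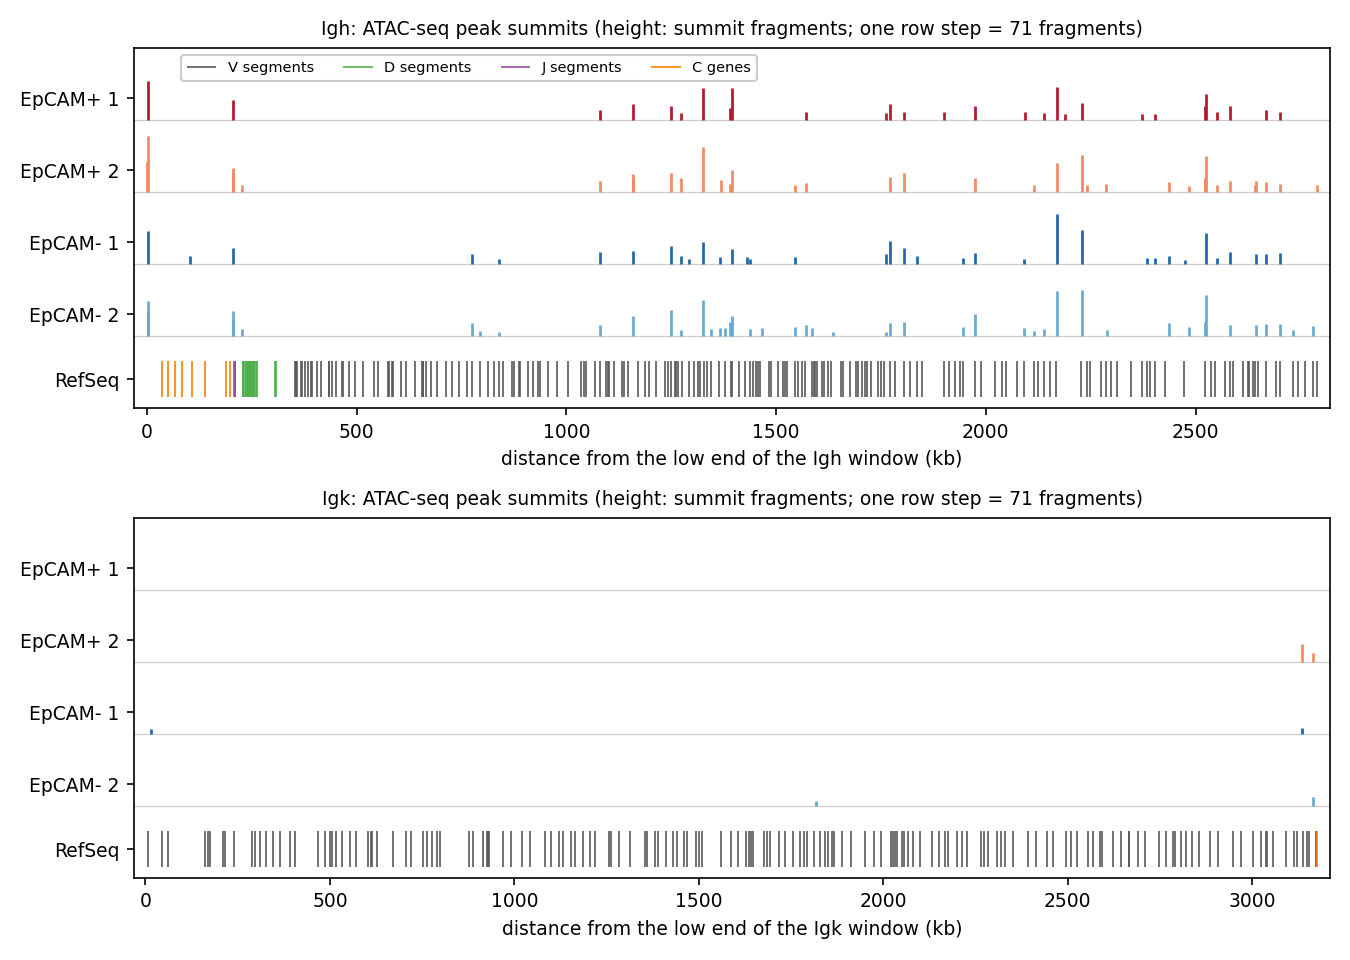
Peak summits along the Igh window (upper panel) and the Igk window (lower panel), as distance from the low end of each window in kb. Each vertical line is 1 peak, its height the summit fragments, in a row per library, above RefSeq V, D, J and C positions. Igh peaks crowd the distal V cluster and leave an empty stretch of 547 kb, and Igk has no line in EpCAM-positive replicate 1.

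On the 3′ side of Igh, beyond Igha, the last constant gene, 1 region was called in all 4 libraries, at chr12:113222141-113222896. It lay 33873 bp from Igha, on the side where the 3′ regulatory region lies, and had 38 and 55 summit fragments in EpCAM-positive libraries, against 32 and 34 in EpCAM-negative libraries. Both EpCAM-positive values were the higher before scaling, and after scaling to equal medians the fractions overlapped. The log2 difference was 0.14 ± 0.23 (SE), with an adjusted p of 0.852 by limma (0.245 to 0.964 over the alternatives), and it turned negative without EpCAM-positive replicate 2, at −0.11, and on the deposited fold, at −0.063. A second region, at chr12:113220050-113220303, was called in EpCAM-positive replicate 2 alone, at 29 summit fragments.

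Between the J segments and Ighm, the first constant gene, 1 region was called in all 4 libraries, at chr12:113424669-113425849. Its strongest summit lay 2387 bp from Ighm. The intronic enhancer lies in the same interval, but its position was not located here, and the region was not assigned to it. The highest summit of the region had 19 and 23 fragments in EpCAM-positive libraries, against 16 and 24 in EpCAM-negative libraries, and the fractions overlapped. The region held peaks at 2 positions. With summits between 113425583 and 113425630, the peaks had 19 and 18 fragments in EpCAM-positive, against 16 and 17 in EpCAM-negative libraries. A further, lower-lying peak was called in both libraries numbered 2, with its summit at 113425201 and 23 fragments in the EpCAM-positive one, and at 113425117 and 24 fragments in the EpCAM-negative one. The log2 difference of the highest summit was −0.24 ± 0.30 (SE; limma adjusted p 0.79, 0.551 to 0.979 over the alternatives). It was 0.093 with no scaling and 0.053 without EpCAM-negative replicate 2.

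Among the constant genes, the only region lay 5122 bp from Ighg1, which encodes an IgG heavy chain, and was called in EpCAM-negative replicate 1 alone at 8 summit fragments. In the D part, a region at chr12:113447313-113447757, 721 bp from the D segment Ighd3-2, was called at 7 summit fragments in EpCAM-positive replicate 2 and at 7 in EpCAM-negative replicate 2. Both were absent from the other library of their fraction. Between the summit of that region and the next, at Ighv14-2, lay 547 kb with no summit, covering the D-proximal V segments.

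V segments of the proximal and the distal part of the cluster differed. The cluster was divided at Ighv1-1, the first segment of the large distal Ighv1 (J558) family, a division chosen after the values were seen. Below it, in 0.779 Mb, there were 1 and 1 peaks in EpCAM-positive libraries, against 3 and 4 in EpCAM-negative libraries. From it upwards, in 1.658 Mb, there were 25 and 29 peaks in EpCAM-positive libraries, against 29 and 36 in EpCAM-negative libraries. Set against the whole genome, the distal stretch was at 1.58 and 1.64 in EpCAM-positive and 1.94 and 2.28 in EpCAM-negative libraries, and the proximal stretch at 0.134 and 0.12 in EpCAM-positive and 0.426 and 0.539 in EpCAM-negative libraries. Every library was denser distally.

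Of 184 annotated Igh V segments, 34 (18.5%) had a region summit within 1000 bp in some library, and 9 in all 4. By library the count was 15 and 16 in EpCAM-positive and 19 and 25 in EpCAM-negative cells, without overlap between the fractions. Where only summits inside the segment itself were counted, it was 12 and 12 in EpCAM-positive and 12 and 16 in EpCAM-negative cells. Segments not annotated as pseudogenes had a region in 30 of 121 cases (24.8%), and pseudogenes in 4 of 63 (6.35%). The Ighv1 family had 27 of its 92 segments with a region, Ighv8 2 of 16, and Ighv14 2 of 4. The proximal families Ighv5, with 21 segments, and Ighv2 (Q52), with 11, had 0. In Igk 0 of 162 V segments had a region, and in Igl 0 of 3. Segments of a family share sequence, and reads can map to several of them.

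Many regions of the V part sat on the segments. Of 55, 27 (49.1%) had their summit inside a V segment, although segments covered 2.43% of the V span. Within 1000 bp of a segment lay 36 (65.5%), against 17.3% of the span. Of these 36, 34 had their summit within 300 bp of the segment's low end, the end that carries the recombination signal. The median segment was 294 bp long, so these 300 bp span a typical segment. The count of 34 therefore cannot show closeness to that end. The median summit was 94 bp above the low end. A further 16 lay over 1000 bp on the high, promoter side and 3 over 1000 bp on the low side.

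**Figure D3:**
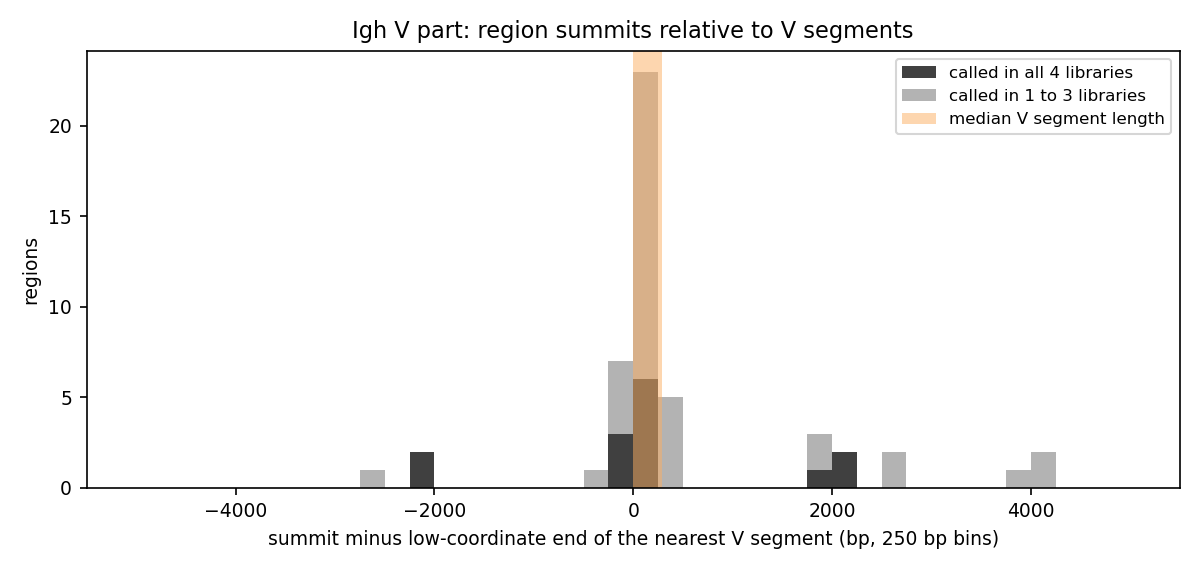
Distance of each region summit from the low-coordinate end of the nearest Igh V segment, in bp (horizontal axis, 250 bp bins), against the number of regions, dark for regions called in all 4 libraries and light for others, with the median segment length of 294 bp shaded. Most of the 49 regions drawn fall on the segment, and 6 regions beyond 5000 bp are not drawn.

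The highest summits of the V part did not lie on segments. By strongest −log10 q, the regions near Ighv1-62-1, Ighv1-62-2 and Ighv1-71 ranked 1, 3 and 4 in Igh. Rank 2 was the region on the low side of the pseudogene Ighv10-4, described in the next paragraph. The region at chr12:115388397-115388966, 1718 bp on the promoter side of Ighv1-62-1, had 32 and 28 summit fragments in EpCAM-positive libraries, against 49 and 44 in EpCAM-negative libraries, and the fractions did not overlap. The region at chr12:115448237-115448623, 1721 bp from Ighv1-62-2, had 16 and 36 in EpCAM-positive against 33 and 45 in EpCAM-negative libraries. The region at chr12:115743967-115744437, 1713 bp from Ighv1-71, had 25 and 35 in EpCAM-positive against 30 and 40 in EpCAM-negative libraries. The last 2 overlapped between the fractions before scaling. Their strongest summits lay 1999, 2014 and 2014 bp above the low end of their segments. A region at Ighv1-77, 1676 bp away, had 11 summit fragments in EpCAM-positive replicate 2 and 10 and 11 in the EpCAM-negative libraries, and 1 at Ighv1-70, 1608 bp away, had 4 in EpCAM-negative replicate 1. In all, 5 regions lay 1608 to 1721 bp above a segment, a spacing noticed after the values were seen, and whether these copies share reads was not tested.

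At segments and elsewhere in the V part, there were 12 further regions called in all 4 libraries. The highest of them by strongest −log10 q, at chr12:114544959-114545430 and 2078 bp on the low side of the pseudogene Ighv10-4, had 31 and 44 summit fragments in EpCAM-positive libraries, against 21 and 35 in EpCAM-negative libraries. A region in the same place relative to the related pseudogene Ighv10-2, 2141 bp on its low side, had 7 and 14 in EpCAM-positive, against 8 and 6 in EpCAM-negative libraries. Both overlapped between the fractions. At Ighv1-12, 198 bp on the low side, the values were 31 and 21 in EpCAM-positive, against 15 and 20 in EpCAM-negative libraries, higher in both EpCAM-positive libraries before scaling and overlapping after it.

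Summits inside segments were found at 6 of the shared regions. The values below are before scaling. After scaling, the log2 difference was negative at all 6, and both EpCAM-positive libraries lay below both EpCAM-negative libraries at 4 of them. Over all 16761 regions called in all 4 libraries, 53.1% were negative and 24.4% lay below in this way. None of the 6 was called by limma, and their lowest adjusted p was 0.24, at Ighv1-81. The Ighv1-2 pseudogene had 14 and 18 summit fragments in EpCAM-positive, against 18 and 25 in EpCAM-negative libraries. Ighv1-47 had 15 and 15 in EpCAM-positive, against 22 and 13 in EpCAM-negative libraries, and Ighv1-54 had 14 and 14 in EpCAM-positive, against 11 and 21 in EpCAM-negative libraries. These 3 overlapped or met between the fractions before scaling. Ighv1-74 had 14 and 11 in EpCAM-positive, against 12 and 11 in EpCAM-negative libraries, and Ighv1-79 had 10 and 10 in EpCAM-positive, against 10 and 12 in EpCAM-negative libraries. Ighv1-81 had 8 and 8 in EpCAM-positive, against 11 and 12 in EpCAM-negative libraries. Ighv1-81 was the one among these 6 without overlap before scaling.

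The last 3 shared regions lay near segments of smaller families. Beside Ighv9-4 there were 10 and 11 summit fragments in EpCAM-positive, against 12 and 11 in EpCAM-negative libraries. Beside Ighv8-4, 187 bp on the low side, there were 8 and 18 in EpCAM-positive, against 16 and 14 in EpCAM-negative libraries. A region 12191 bp from Ighv12-3 had 15 and 17 in EpCAM-positive, against 13 and 20 in EpCAM-negative libraries. The fractions overlapped or met at all 3 before scaling. After scaling, Ighv9-4 was at 9.05 and 9.65 in EpCAM-positive, against 13.5 and 12.3 in EpCAM-negative libraries, without overlap.

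The 4 regions called in both EpCAM-negative and neither EpCAM-positive library were low. At Ighv14-2, chr12:113994305-113994708, EpCAM-negative libraries had 10 and 13 summit fragments, and at Ighv14-3, chr12:114059685-114060037, 5 and 4. At Ighv1-15, chr12:114657386-114657635, they had 5 and 7, and at Ighv8-6, chr12:115165434-115165828, 6 and 9. The strongest summit of each region lay inside the first 3 segments and 147 bp from Ighv8-6, while the weaker summits at Ighv14-2 and Ighv14-3 lay below the segment. The lowest summit called anywhere was 5 fragments in each EpCAM-positive library, against 3 in each EpCAM-negative library, and the background was the higher in EpCAM-positive libraries. Apart from Ighv14-2, the values were near these floors, and whether the same sites fell just short of a call in EpCAM-positive libraries was not tested. At a −log10 q of at least 5, 1 of 48 immunoglobulin regions had this pattern, against 1.48% of all regions, and 1 had the reverse pattern, against 4.84% of all regions.

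Levels were compared by limma over all 16761 regions called in all 4 libraries, on log2 summit fragments scaled to equal medians. Over all regions, 16 (0.0955%) passed an adjusted p of 0.05, 4 higher (0.0239%) and 12 lower (0.0716%) in EpCAM-positive cells. None of the 17 Igh regions passed. At an unadjusted p under 0.05 there were 5 of 17, against 12.9% of all regions. The log2 difference was negative in 13 of 17, with a median of −0.46, against a median of −0.03 and 53.1% negative over all regions, of which 11.1% lay at or below the Igh median. With a filter at a mean of 20 fragments, 7 Igh regions remained, 4 of them negative, with a median of −0.23. On the deposited fold 14 of 17 were negative, with a median of −0.15. Igh regions were lower in level, at medians of 16.25 against 28.25 fragments, and the comparison was not matched for level. After scaling, both EpCAM-positive libraries lay below both EpCAM-negative libraries at 8 Igh regions (47.1%), against 24.4% of all regions, and above them at 0, against 19.3%. Before scaling, 2 Igh regions lay below and 2 above, against 5.2% below and 49.4% above over all regions.

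The 2 largest differences among the Igh regions were on the promoter side of Ighv1-62-1 and Ighv1-62-2. At Ighv1-62-1 the scaled level was 29.0 and 24.6 in EpCAM-positive libraries, against 55.0 and 49.4 in EpCAM-negative libraries. Its log2 difference was −0.97 ± 0.23 (SE), with an adjusted p of 0.082 by limma (0.00133 to 0.56 over the alternatives). At Ighv1-62-2 it was −1.02 ± 0.31, with a limma adjusted p of 0.147 (0.00246 to 0.662), on scaled levels of 14.5 and 31.6 in EpCAM-positive and 37.0 and 50.5 in EpCAM-negative libraries. Neither passed as fitted. The Ighv1-62-2 difference rested on which EpCAM-positive library was kept, at −0.45 with EpCAM-positive replicate 1 left out and −1.58 with replicate 2 of that fraction left out. With scaling by background Ighv1-62-1 passed at 0.0262, and without EpCAM-negative replicate 1 Ighv1-62-2 passed at 0.0241. The difference was −0.86 ± 0.32 at Ighv1-81 (adjusted p 0.24), −0.75 ± 0.30 at Ighv1-2 (adjusted p 0.282), −0.65 ± 0.35 at Ighv8-4 (adjusted p 0.45) and −0.56 ± 0.26 at Ighv1-71 (adjusted p 0.354), each by limma.

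**Figure D4:**
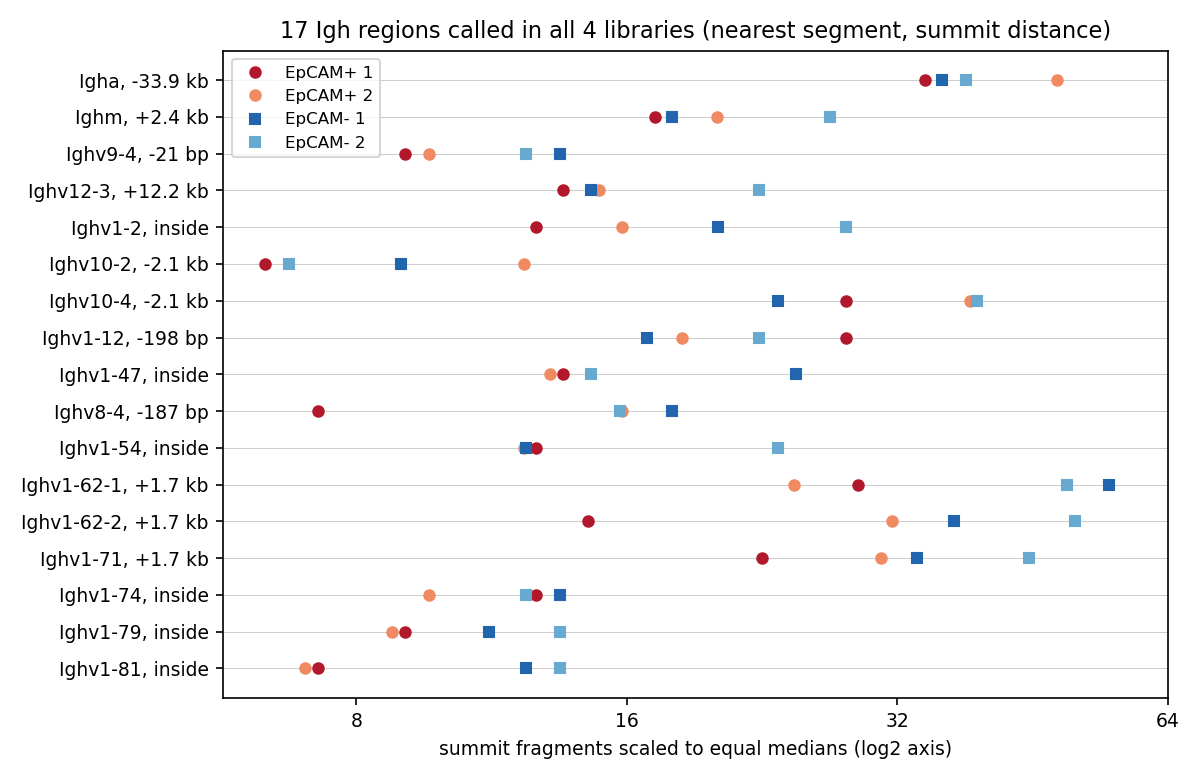
Summit fragments scaled to equal medians (horizontal log2 axis) at the 17 Igh regions called in all 4 libraries, 1 point per library, circles for EpCAM-positive and squares for EpCAM-negative libraries. Rows are named by the nearest segment and the summit's distance from it, a positive distance being towards higher coordinates. At Ighv1-62-1 the circles stand at 29.0 and 24.6 and the squares at 55.0 and 49.4.

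The 4 Igk regions lay far apart, none in more than 2 libraries. The strongest, at chr6:70685558-70685843 and 1267 bp from Igkv3-3, had 17 summit fragments in EpCAM-positive replicate 2 and 6 in EpCAM-negative replicate 1. The region at chr6:70714294-70714693, in the interval between V and J segments and within the long non-coding RNA gene Gm46961, had 9 in EpCAM-positive replicate 2 and 9 in EpCAM-negative replicate 2. The other two, at chr6:67566055-67566398 and chr6:69367799-69368010, had 5 summit fragments each, in EpCAM-negative replicates 1 and 2 in turn. Their summits were 1801.7 kb apart. The J segments, the J-to-C interval with the intronic kappa enhancer, the constant gene Igkc and the 3.246 kb beyond it held 0 regions. The nearest region above the window, at chr6:70791565-70792622, lay 62.15 kb beyond it and was called in all 4 libraries. Igl had no region, and its closest neighbours lay 142 kb below and 495.4 kb above its window, both called in all 4 libraries.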

How the data were processed

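Members and lists were chosen with earlier results of these data known. The data are 4 narrow peak lists, 1 per library. Per the submitters' processing notes, the tools included MACS3, Bowtie2, Picard, SAMtools, Trimmomatic, Trim Galore, FastQC, deepTools and bedtools, and the build was mm10 (GRCm38). Their versions, their settings and the placing of reads that match several V segments were not given in the sources used here. Each deposited list holds the authors' display score, fold enrichment (a ratio over local background), −log10 p-value, −log10 q-value and summit offset for each peak. The fold and −log10 p were solved for summit fragments and background, as a Poisson tail with 1 added to both terms of the fold, with a tolerance of 0.001 on −log10 p; 100% of the peaks were solved. No source says if these are fragments or reads, and a different share of fragments outside peaks would also move the background.

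Peaks were merged at 1 bp overlap and placed by the summit of highest −log10 q against RefSeq GRCm38.p6 gene positions; no genome sequence was used here. Levels were tested with limma 3.58.1 (R 4.3.3, trend, Benjamini-Hochberg over all shared regions, threshold 0.05), a fit first checked on simulated data; promoters were aligned with Biopython 1.88. Regions named were those outside the V part, those called in all 4 libraries or in both libraries of 1 fraction only, and the 5 strongest per locus; others named were chosen after their values were seen. Alternatives were other thresholds, list lengths, overlaps, windows, scalings, a filter, a replicate block, the deposited fold and each library left out.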

Additional observations from a re-analysis of the deposited data

How the results depend on the processing

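Depth is known only through the solved background, and with 2 libraries per fraction no single region can pass an exact test. The difference in peaks over the 3 loci kept its sign under every alternative run, at −9 as reported, −2.5 at a −log10 q of at least 5, −11 at equal list length, where the fractions no longer overlapped, and −14 to −4 with a library left out. The count of 17 regions called in all 4 libraries stayed within 1.5 times under the alternatives run. The EpCAM-positive-only count was 0, and 1 at a −log10 q of at least 5 and 1 to 6 with a library left out, which needs fewer calls, while the share of all regions was 4.4%, 4.84% and 7.67% to 14.8%. The EpCAM-negative-only count was 4, and 1 at that threshold and 6 to 14 with a library left out, where the share of all regions was 1.72%, 1.48% and 3.19% to 8.81%. Mean Igh density over the genome's was 1.336 by peaks (1.05 to 1.694 over the libraries) and 0.992 by bases (0.72 to 1.273). Regions called by limma were 16 over all shared regions, 204 with scaling by the background, 0 with no scaling, 0 on the deposited fold, 33 with a filter at a mean of 20 fragments and 0 to 191 with a library left out. Among Igh regions 0 were called, 1 with scaling by the background and 0 to 1 with a library left out. With no scaling the median log2 difference of all shared regions was 0.31 and that of Igh −0.13. With scaling by the background these medians were −0.11 and −0.55, on the deposited fold −0.014 and −0.15, and with the filter −0.016 and −0.23. The Igh median was −0.56 to −0.33 with a library left out. The sign changed under some alternative at 7 of the 17 shared Igh regions, none of them called: the 3′ region, at −0.063 on the deposited fold and −0.11 (without EpCAM-positive replicate 2) to 0.38 with a library left out, the J-to-C region, at 0.093 with no scaling and −0.53 to 0.053 (without EpCAM-negative replicate 2) with a library left out, and the regions at Ighv10-2 (−0.30 to 0.66 over the alternatives), Ighv10-4 (−0.26 to 0.48), Ighv1-12 (−0.078 to 0.56), Ighv1-54 (−0.92 to 0.015) and Ighv1-74 (−0.42 to 0.11). The causes were not tested.

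With the replicate number as a block, 790 of all shared regions and 2 Igh regions were called, Ighv1-62-1 (limma adjusted p 0.00133) and Ighv1-62-2 (0.00246). The deviations of same-numbered libraries correlated at 0.16 over 16761 regions, but with 2 pairs and no label on what a number marks, the libraries share only a number.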
